A study of Mus musculus with 4 samples.

Results

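Leptotene spermatocytes, the germ cells that open meiotic prophase I, were examined in testes of P15 mice (postnatal day 15) that carried or lacked MEIOC. These cells were chosen by the values that were then described. A barcode was a member where *Prdm9*, *Dmc1* and *Meiob* together reached 5 of every 10000 unique molecular identifiers (UMIs, counts of single transcripts), where *Prdm9* had at least 1 UMI and *Psma8* had none, where *Fabp9* was under 5 per 10000 and where *Plk1* and *Ccnb1* together had at most 2 UMIs. No condition was set on *Stra8*. Members numbered 2901 of 29592 barcodes that had more than 1000 detected genes and less than 10% mitochondrial UMIs, and are called leptotene-gated cells here. Wild-type replicates 1 and 2 gave 536 and 920 members, and *Meioc*-null replicates 1 and 2 gave 824 and 621.

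The 4 libraries came from 4 pups, 1 testis each, with 2 wild-type and 2 *Meioc*-null mice. Each batch was a pair of littermates with 1 pup of each genotype. Library preparation and sequencing were also done by batch. Litter and processing therefore cannot be told apart, and the term litter pair stands for both. *Meioc*-null mice were homozygous for the *Meioc* tm1.1Dpc allele. All 4 mice, wild-type included, were also heterozygous for the *Hspa2* tm1Dix allele and homozygous for a *ROSA26* tdTomato reporter whose floxed stop was intact, on a C57BL/6N background. The libraries held between 158291903 and 190455307 UMIs, and 3′ tags were counted, so a level is a share of transcripts and is given as CPM (UMIs scaled to a sum of 1000000 over the member cells of a library). Fewer transcripts of one kind and more of the others cannot be told apart on this scale.

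In leptotene the replicated chromosomes fold onto protein axes and the recombination machinery breaks the DNA. PRDM9, a histone methyltransferase, marks the sites, the SPO11 complex cuts them, and DMC1, with MEIOB and other partners, carries the broken strand into the homologous chromosome. Psma8, a proteasome subunit specific to spermatocytes, and Fabp9 come on later in prophase. MEIOC, together with its partners YTHDC2 and RBM46, regulates transcripts around entry into meiosis, when STRA8 and MEIOSIN (encoded by *Gm4969*) switch on meiotic genes.

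The label was checked against markers. *Gml*, the only one of the 4 leptotene markers outside the rule, had 41.3 and 43.8 CPM in the wild-type and 24.6 and 31.9 CPM in the *Meioc*-null members. In the preleptotene-gated cells (*Stra8* at least 5 per 10000, a *Meioc* UMI, no *Psma8* UMI, the *Prdm9*, *Dmc1* and *Meiob* sum under 5 per 10000, and the members' limits on *Fabp9*, *Plk1* and *Ccnb1*) it had between 9.92 and 22.8 CPM. In zygotene-gated cells (as the members, but with at least 1 *Psma8* UMI and with no condition on *Prdm9*) it had 210.6 and 229 CPM in wild-type against 59.4 and 62.4 CPM in *Meioc*-null. *Gml* was therefore low in the members, and its highest level lay in the neighbouring gate. The members expressed other early spermatocyte genes. *Tex101* and *Ly6k*, which encode GPI-anchored surface proteins of germ cells, had 1959 to 2244 CPM and 994.6 to 1343 CPM.

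Markers of somatic cells were low but not absent, while those of other germ cell stages were not all low. Over the list, the 6 Sertoli markers summed to 92.0 and 79.3 CPM in wild-type against 139 and 65.8 CPM in *Meioc*-null, the 5 peritubular myoid markers to between 74.7 and 123.8 CPM, and the 6 Leydig and 6 macrophage markers to at most 17.2 and 5.29 CPM. Of the macrophage markers 5, 1, 0 and 2 were at 0 in wild-type replicates 1 and 2 and *Meioc*-null replicates 1 and 2. The 7 markers of differentiating spermatogonia summed to 529 and 429 CPM in wild-type against 714 and 628 CPM in *Meioc*-null, and the 8 pachytene markers to 275 and 278 CPM against 184 and 214 CPM. Over all kept barcodes the differentiating list had 574 and 499 CPM in wild-type against 668 and 611 CPM in *Meioc*-null. The pachytene list had 970 and 673 CPM against 197 and 197 CPM there. In *Meioc*-null members the differentiating list thus lay above the level over all kept barcodes. Both lists moved with genotype, and their part in the results was not tested. Among the members 10, 33, 32 and 21 had high doublet scores. Member barcodes of 1 library recurred in another at most 2 times.

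The members were 8.46% and 10.8% of the kept barcodes in wild-type against 10.9% and 8.61% in *Meioc*-null, so the genotypes overlapped. Among the 5561, 7796, 6713 and 6542 barcodes with at least 5000 UMIs, each thinned to 5000, the shares were 9.57%, 10.7%, 15.1% and 12.7%. No test was made, because the genes of the rule define the share. Of all barcodes whose *Prdm9*, *Dmc1* and *Meiob* sum reached the limit, 54.4% and 52.6% were members in wild-type against 51.8% and 48.7% in *Meioc*-null. What the rule set aside differed between genotypes. Barcodes with more than 2 *Plk1* and *Ccnb1* UMIs, transcripts of a mitotic kinase and a mitotic cyclin, numbered 42 and 78 in wild-type against 555 and 454 in *Meioc*-null. Zygotene-gated cells numbered 249 and 481 against 139 and 165, and *Fabp9*-high barcodes 76 and 82 against 0 and 1. Near the threshold, 78, 125, 192 and 116 members had a sum of 5 to 6 per 10000, and 103, 101, 221 and 120 barcodes lay just outside at 4 to 5.

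The genes of the rule are described without a test. *Prdm9* had 329 and 312 CPM in wild-type against 340 and 315 CPM in *Meioc*-null members. *Dmc1* had 414, 445, 380 and 418 CPM in the same order. *Meiob* had 159, 220, 89.1 and 149 CPM, with 37.5% and 22.5% of wild-type and 54.0% and 34.8% of *Meioc*-null members at 0 UMIs. The 2 genotypes thus overlapped in *Prdm9* and *Dmc1*, while *Meiob* was lower in both *Meioc*-null libraries. *Plk1* and *Ccnb1*, although limited by the rule, had 3.99 and 4.27 CPM and 16.3 and 17.2 CPM in wild-type against 22.2 and 22.2 CPM and 46.0 and 40.3 CPM in *Meioc*-null.

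*Stra8*, the retinoic acid-induced gene of meiotic entry, on which the rule set no condition, varied widely among members. The median cell had 9.01 and 3.92 *Stra8* UMIs per 10000 in wild-type, with a range from the 5th to the 95th percentile of 0 to 33.6 and 0 to 28.9. In *Meioc*-null the median was 20.7 and 17.9 per 10000, and the same range was 5.64 to 38.0 and 5.23 to 35.4. No *Stra8* UMI was found in 11.8% and 20.3% of wild-type members but in 0.728% and 0.322% of *Meioc*-null members. Thinned to 5000 UMIs, 81.5% and 70.02% of wild-type and 99.5% and 99.7% of *Meioc*-null members had a *Stra8* UMI, against 6.95% to 18.6% of myoid-gated barcodes (12.4% to 27.1% unthinned). The median member had 10568 and 10007 UMIs in wild-type against 10876 and 12683 UMIs in *Meioc*-null. *Sycp1*, the central filament of the synaptonemal complex, followed the replicate more than the genotype, with medians of 19.2 and 14.9 per 10000 in replicate 1 of wild-type and *Meioc*-null and 33.7 and 27.4 per 10000 in replicate 2.

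**Figure D1:**
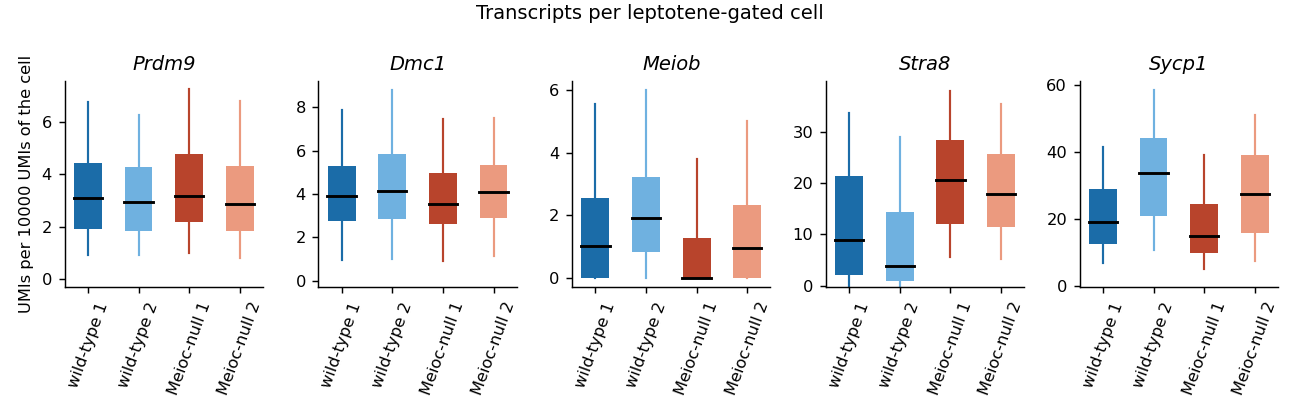
UMIs per 10000 UMIs of the cell (vertical axis) for 5 genes in leptotene-gated cells of the 4 libraries (horizontal axis). Boxes span the 25th to 75th percentile of cells, black lines are medians and thin lines run from the 5th to the 95th percentile. *Stra8* medians were 9.01 and 3.92 in wild-type against 20.7 and 17.9 in *Meioc*-null, while *Prdm9*, *Dmc1* and *Meiob*, plotted in the first 3 panels, were used to choose the cells.

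To ask how transcripts of leptotene-gated cells differed without MEIOC, UMIs were summed per library over the members and compared between 2 wild-type and 2 *Meioc*-null libraries (edgeR quasi-likelihood test). Of 5759 genes detected in 25% or more of the members of either genotype, 1400 (24.3%) had a Benjamini-Hochberg adjusted p under 0.05 and a log2 fold change beyond 0.1. Of these, 565 were higher in wild-type (9.81%) and 835 were higher in *Meioc*-null (14.5%), and the median log2 fold change of the genes tested was -0.01. With the litter pair as a block 3075 genes passed (53.4%), including all 1400, in the same direction. The block leaves little spread to estimate for each gene, so its counts do not check the calls. Under the block 25% of all genes were called higher in wild-type, against 28.4% in *Meioc*-null. Without *Meioc*-null replicate 1 the count fell to 902, of which 824 were among the 1400. The count higher in wild-type was 312 without that library and 377 without wild-type replicate 2, so that its share moves with single libraries. The filter on detection let 128 genes pass through wild-type alone and 666 through *Meioc*-null alone, so that the direction of any call among genes of this kind was fixed by the filter. Among the 4965 that passed in both genotypes, 509 were higher in wild-type against 541 in *Meioc*-null. A lack of overlap between the genotypes was common, at 63.6% of the genes tested, and is no sign of a change by itself.

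*Meioc* itself (chromosome 11, 102663716 to 102682237, GRCm38) had 620 and 614 CPM in wild-type against 708 and 719 CPM in *Meioc*-null members, and did not pass the test (adjusted p = 0.361). The labels and methods used here do not place the deleted part relative to the 3′ tags, so this level does not check the genotype.

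The largest differences among called genes with a mean of at least 50 CPM in the higher genotype were led in *Meioc*-null by *Cenpa* (chromosome 5, 30666777 to 30674830), the histone H3 variant of centromeres. *Cenpa* had 26.3 and 24.3 CPM in wild-type against 167 and 155 CPM in *Meioc*-null, or -2.63 ± 0.12 as a log2 fold change (SE, 2 libraries a genotype, edgeR adjusted p = 5.88e-05). *Cox8a*, a cytochrome c oxidase subunit, had 76.2 and 75.9 CPM against 329 and 369 CPM (-2.16 ± 0.12, adjusted p = 0.000151). *Cox7b*, another subunit of that enzyme, had 15.6 and 17.7 CPM against 58.2 and 57.8 CPM (-1.75 ± 0.16, adjusted p = 0.00101). *Sgpl1*, the sphingosine-1-phosphate lyase, had 103 and 89.1 CPM against 348 and 303 CPM (-1.72 ± 0.11, adjusted p = 0.00032). In each of these 4 genes both *Meioc*-null libraries lay well above both wild-type libraries. The other 6 genes of this rank were *2810403D21Rik*, *Tchh*, *Stxbp3*, *Gm17494*, *AC160336.1* and *Wdcp*, with log2 fold changes of -2.40 to -1.80. Of the 10 genes *Cenpa*, *2810403D21Rik*, *Tchh*, *Stxbp3*, *AC160336.1* and *Cox7b* passed the detection filter through *Meioc*-null alone, which fixed the direction of their calls. That of *AC160336.1* was -1.83 and became -1.11 without *Meioc*-null replicate 2.

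In the other direction *Dnpep* (chromosome 1, 75307896 to 75317990), an aspartyl aminopeptidase, led with 337 and 289 CPM in wild-type against 77.4 and 68.8 CPM in *Meioc*-null (log2 fold change 2.14 ± 0.11, edgeR adjusted p = 0.000117). *Tsga10*, a testis gene of the sperm tail, had 171 and 242 CPM against 56.8 and 71.5 CPM (1.73 ± 0.20, adjusted p = 0.00209). *Maoa*, which encodes monoamine oxidase A, had 47.1 and 66.2 CPM against 13.7 and 22.4 CPM (1.70 ± 0.28, adjusted p = 0.00571). *Bc1*, a small noncoding RNA whose reads can be shared with repeat copies, had 1711 and 1109 CPM against 548 and 452 CPM. The genotypes did not overlap in these genes. *Spo11*, *Gm15491*, *Zcwpw2*, *Mpv17l2*, *AC149090.1* and *Tm2d2* completed this rank, with log2 fold changes of 1.28 to 1.68. *Maoa*, *Spo11*, *Gm15491* and *Mpv17l2* passed the detection filter through wild-type alone.

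**Figure D2:**
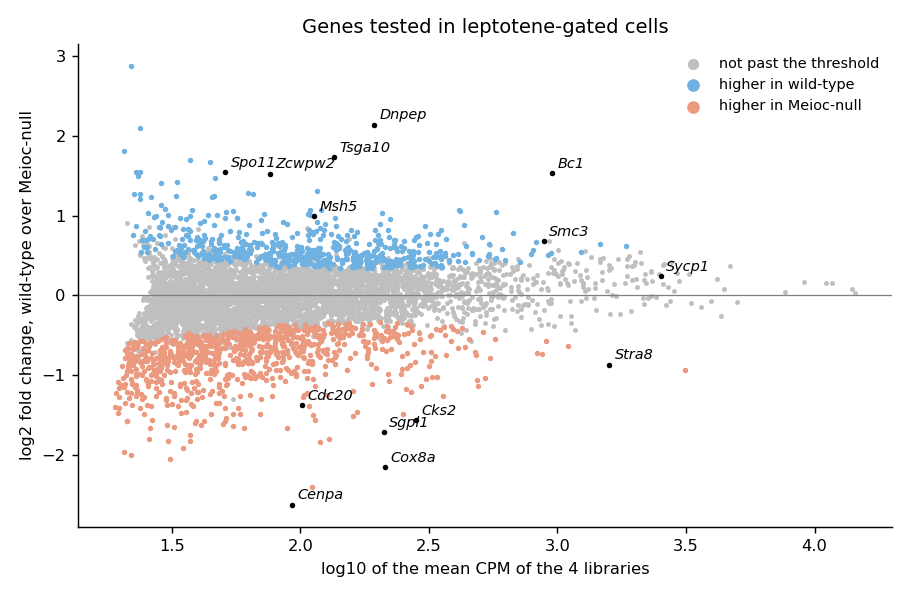
Each point is 1 of the 5759 genes tested in leptotene-gated cells, with the log10 of its mean CPM over the 4 libraries (horizontal axis) against its log2 fold change, wild-type over *Meioc*-null (vertical axis). Blue points are the 565 genes higher in wild-type, orange points the 835 higher in *Meioc*-null, grey points did not pass, and *Cenpa* and *Dnpep* are among the 14 genes named in black.

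Of the genes that form double-strand breaks, all 9 listed were tested, 4 were higher in wild-type and none in *Meioc*-null, and the list median was 0.43 against -0.01 over all genes, of which 9.81% were called higher in wild-type. The list median was 0.24 without *Meioc*-null replicate 1 and 0.66 without *Meioc*-null replicate 2. *Spo11* (chromosome 2, 172977700 to 172993576), the nuclease, had 61.9 and 88.6 CPM in wild-type against 20.9 and 32.6 CPM in *Meioc*-null (log2 fold change 1.54 ± 0.27, edgeR adjusted p = 0.00665), and it passed the detection filter through wild-type alone. Of the 8 listed genes that passed it in both genotypes 3 were called. Thinned to 5000 UMIs, 22.8% and 30.1% of wild-type and 9.94% and 13.9% of *Meioc*-null members had a *Spo11* UMI (36.9%, 46.6%, 16.7% and 28.2% unthinned). In peritubular myoid-gated barcodes, which should lack it and had a median of 8640 to 11766 UMIs, the thinned share was 0.135% to 1.42%. *Ankrd31*, a scaffold of the break machinery, had 362 and 495 CPM against 225 and 292 CPM (0.77 ± 0.20, adjusted p = 0.0262). *Mei1* had 74.6 and 67.2 CPM against 45.5 and 50.2 CPM (0.60 ± 0.14, adjusted p = 0.0188), and *Ccdc36*, which encodes the axis-bound activator IHO1, had 120 and 114 CPM against 77.9 and 87.0 CPM (0.54 ± 0.12, adjusted p = 0.0161). Without *Meioc*-null replicate 1 the calls of *Mei1* (adjusted p = 0.073) and *Ccdc36* (adjusted p = 0.0921) were lost and 2 of the 4 remained, and *Ankrd31* was 0.49 without wild-type replicate 2. *Tex15* (-0.10), *Rec114* (-0.24) and *Gm960* (-0.07) had values below 0 and did not pass.

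Of 16 listed strand exchange genes 13 were tested, and the median was 0.31. With the litter pair as a block 9 were higher in wild-type, where 25% of all genes were called higher in wild-type. Without the block 4 were higher in wild-type and none in *Meioc*-null, beside 9.81% and 14.5% of all genes. The count was 2 without *Meioc*-null replicate 1 and 7 without *Meioc*-null replicate 2. *4930432K21Rik*, which encodes the HSF2BP partner BRME1, had 64.4 and 73.0 CPM in wild-type against 32.2 and 36.6 CPM in *Meioc*-null (log2 fold change 1.04 ± 0.16, edgeR adjusted p = 0.00484). *Hsf2bp*, whose protein brings BRCA2 to breaks, had 285 and 284 CPM against 165 and 196 CPM (0.69 ± 0.13, adjusted p = 0.00885). *Brca2* (0.49, adjusted p = 0.0346) and *Sfr1* (0.44, adjusted p = 0.0373) also passed. *Brca2* did not pass without wild-type replicate 2 (0.34, adjusted p = 0.264) or *Meioc*-null replicate 1 (0.47, adjusted p = 0.0764), nor *Sfr1* without wild-type replicate 1, wild-type replicate 2 or *Meioc*-null replicate 1 (adjusted p of 0.136 to 0.146). *Mcmdc2*, *Mnd1* and *Rpa1* were too rarely detected to be tested.

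Among crossover genes, 9 of 11 were tested, and *Msh5* and *Hfm1* were higher in wild-type, where 9.81% of all genes were called higher. *Msh5* (chromosome 17, 35028605 to 35046745), which with MSH4 holds recombination intermediates, had 148 and 150 CPM in wild-type against 77.2 and 77.7 CPM in *Meioc*-null (log2 fold change 0.99 ± 0.11, edgeR adjusted p = 0.0017). *Hfm1*, a meiotic DNA helicase, had 246 and 318 CPM against 157 and 202 CPM (0.69 ± 0.18, adjusted p = 0.0281), with 0.49 and an adjusted p of 0.0552 without *Meioc*-null replicate 1, and 0.45 without wild-type replicate 2. No crossover gene was called higher in *Meioc*-null, but 3 were with the block (28.4% of all genes), and the list median was 0.01. Of the 9 genes of telomere attachment, all tested, *Terb1*, *Spdya* and *Sun1* were higher in wild-type and the cyclin gene *Ccne2* in *Meioc*-null (6 and 2 with the block, beside 25% and 28.4% of all genes). Without the block 9.81% and 14.5% of all genes were. *Terb1*, part of the complex that ties telomeres to the nuclear envelope, had 245 and 308 CPM against 120 and 157 CPM (1.04 ± 0.18, adjusted p = 0.00692). *Spdya*, an activator of CDK2 at telomeres, had 283 and 332 CPM against 184 and 209 CPM (0.69 ± 0.14, adjusted p = 0.0118). *Sun1*, a nuclear envelope protein, lost its call without *Meioc*-null replicate 2 (0.38, adjusted p = 0.0836), and *Ccne2* without wild-type replicate 2 (-0.34, adjusted p = 0.217) or *Meioc*-null replicate 1 (-0.40, adjusted p = 0.0837).

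The axis and synaptonemal complex genes gave 1 call among 11 tested, beside 24.3% of all genes. *Syce2*, a central element protein, had 977 and 1026 CPM in wild-type against 589 and 703 CPM in *Meioc*-null (log2 fold change 0.67 ± 0.16, edgeR adjusted p = 0.0201), and lost its call without wild-type replicate 2 (0.60, adjusted p = 0.0586) or *Meioc*-null replicate 1 (0.51, adjusted p = 0.073). *Sycp1* had 2124 and 3277 CPM against 1803 and 2880 CPM, and *Sycp3*, an axis protein, had 2423 and 2867 CPM against 2321 and 3385 CPM. Replicate 2 exceeded replicate 1 in both genotypes for both genes, and neither passed (adjusted p = 0.573 and 0.839). With the litter pair as a block *Sycp1* was called higher in wild-type (adjusted p = 0.00856) and *Sycp3* was not (adjusted p = 0.659). With the block 5 genes of this list were higher in wild-type against 1 in *Meioc*-null, beside 25% and 28.4% of all genes.

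Cohesin subunits went in opposite directions, with 3 of 11 higher in wild-type against 3 higher in *Meioc*-null (5 and 4 with the block, beside 25% and 28.4% of all genes). Without the block 9.81% and 14.5% of all genes were. Of the 10 that passed the detection filter in both genotypes, which leaves out *Rec8*, 3 and 2 were called. The kleisins, the subunits that close the cohesin ring, differed among themselves. *Rad21l* (chromosome 2, 151645404 to 151668533), a meiosis-specific kleisin, had 116 and 113 CPM in wild-type against 64.8 and 77.0 CPM in *Meioc*-null (log2 fold change 0.73 ± 0.14, edgeR adjusted p = 0.00838). *Rec8*, the other meiosis-specific kleisin (chromosome 14, 55618037 to 55625395), had 23.1 and 16.0 CPM against 61.7 and 37.0 CPM (-1.31 ± 0.25, adjusted p = 0.00955), and passed the filter through *Meioc*-null alone. *Rad21*, the mitotic kleisin, had 32.1 and 34.7 CPM against 90.0 and 76.5 CPM (-1.27 ± 0.14, adjusted p = 0.00179). With cells thinned to 5000 UMIs, a *Rec8* UMI was found in 7.65% and 6.19% of wild-type and 24.1% and 14.0% of *Meioc*-null members (18.8%, 13.0%, 40.7% and 33.5% unthinned), against 1.11% to 2.62% of thinned myoid-gated barcodes. *Smc3*, a core ATPase of all cohesins, had 1032 and 1125 CPM against 679 and 708 CPM (0.68 ± 0.15, adjusted p = 0.014), and *Stag3* had 450 and 460 CPM against 330 and 332 CPM (0.50 ± 0.11, adjusted p = 0.0169). Without wild-type replicate 2 neither *Smc3* (adjusted p = 0.077) nor *Stag3* (adjusted p = 0.0748) passed, and *Stag3* also missed without *Meioc*-null replicate 1 (adjusted p = 0.0536). *Wapl*, the cohesin release factor, was called higher in *Meioc*-null (-0.38, adjusted p = 0.0367), but not without any 1 of the 4 libraries (adjusted p of 0.0798 to 0.209).

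Most transcripts of the G2 and M phase list were higher in *Meioc*-null members. The rule had removed only the barcodes with more than 2 *Plk1* and *Ccnb1* UMIs. No *Plk1* UMI was found in 95.7% and 95.8% of wild-type members against 77.4% and 76.0% of *Meioc*-null members. The part of dividing cells left in the gate was not tested. Of 23 listed genes 22 were tested, 16 were higher in *Meioc*-null and none in wild-type, and the median was -0.96, while 14.5% of all genes were called higher in *Meioc*-null. *Aurka*, *Ccnb2* and *Kif20a* passed the detection filter through *Meioc*-null alone, and of the 19 that passed it in both genotypes 13 were called. *Ube2c*, a ubiquitin-conjugating enzyme of the anaphase-promoting complex, had 38.9 and 43.7 CPM in wild-type against 127 and 144 CPM in *Meioc*-null (log2 fold change -1.67 ± 0.14, edgeR adjusted p = 0.000967). *Cks2*, a CDK-binding protein, had 126 and 153 CPM against 354 and 494 CPM (-1.57 ± 0.20, adjusted p = 0.00243). *Cdc20* (chromosome 4, 118432901 to 118437352), the activator of that complex, had 59.4 and 51.5 CPM against 149 and 146 CPM (-1.38 ± 0.12, adjusted p = 0.000964). *Cdk1*, the mitotic kinase, had 35.6 and 31.6 CPM against 70.1 and 72.0 CPM (-1.04 ± 0.14, adjusted p = 0.00306). The genotypes did not overlap in these 4 genes. *Top2a* (-0.01), *Cenpf* (-0.08) and *Bub1* (0.25) were near or above 0 and did not pass, though *Bub1* did with the block (adjusted p = 0.0132). *Bub1b* did not pass without wild-type replicate 2 (adjusted p = 0.156) or *Meioc*-null replicate 1 (adjusted p = 0.151), nor *Hmmr* without wild-type replicate 1 (adjusted p = 0.105) or *Meioc*-null replicate 2 (adjusted p = 0.0939).

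Because these genes moved together, RefSeq promoters (GRCm38.p6, 250 bases before to 50 after each start) were searched on both strands for TTTGAA, the core of the cell-cycle homology region of G2 and M phase genes. It was found in 13 of 19 promoters of the list, against 17.9% of all 32851 promoters and 11.9% of those of the genes tested. Among the listed promoters 10 of 14 of called genes and 3 of 5 of the others held it. These are the 100 bases before the start, 5′ to 3′ on the gene's strand, of the called genes with the largest differences that held a match there, with the match in capitals, which begins 29 bases before the start in *Ube2c*, 18 in *Cdc20*, 19 in *Kif11*, and 71 and 15 in *Cdk1*.
Ube2c, chr2:164769829-164769928, plus strand: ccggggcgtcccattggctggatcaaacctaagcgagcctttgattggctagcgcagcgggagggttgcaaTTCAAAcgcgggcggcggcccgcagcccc
Cdc20, chr4:118437344-118437443, minus strand: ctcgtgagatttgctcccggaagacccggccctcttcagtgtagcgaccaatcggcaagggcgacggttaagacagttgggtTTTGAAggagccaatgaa
Cdk1, chr10:69352913-69353012, minus strand: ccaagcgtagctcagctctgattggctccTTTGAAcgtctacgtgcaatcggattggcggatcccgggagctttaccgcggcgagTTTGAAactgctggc
Kif11, chr19:37376282-37376381, plus strand: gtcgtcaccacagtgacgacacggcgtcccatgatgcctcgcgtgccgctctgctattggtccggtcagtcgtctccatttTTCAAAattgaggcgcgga
The E2F letters TCCCGC, which cannot share bases with TTTGAA, were in 12 of 14 promoters of the strand exchange list, in 5 of 6 of telomere attachment, 7 of 9 of cohesin, 17 of 26 of S phase, 10 of 19 of G2 and M phase and 1 of 7 of the double-strand break list, against 20% of all promoters and 39% of those of the genes tested. They were in 41.7% of promoters of all genes called higher in wild-type, and in 40.1% for *Meioc*-null. *Hsf2bp*, the called strand exchange gene with the largest difference among those with a match in that stretch, is shown with the 150 bases before the start.
Hsf2bp, chr17:32034509-32034658, minus strand: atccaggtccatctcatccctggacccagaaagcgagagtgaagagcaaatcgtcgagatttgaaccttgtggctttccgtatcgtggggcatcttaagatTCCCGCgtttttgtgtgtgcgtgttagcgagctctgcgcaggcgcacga
A match is a description of the letters and not of a bound site.

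Of 25 listed S phase genes 20 were tested, with a median of 0.01. With the litter pair as a block 6 were higher in wild-type against 4 in *Meioc*-null, beside 25% and 28.4% of all genes.

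Of 10 genes of meiotic entry 6 were tested, and *Stra8* and *Crabp1* were higher in *Meioc*-null, where 14.5% of all genes were called higher. *Stra8* (chromosome 6, 34920163 to 34939344) had 1302 and 916 CPM in wild-type against 2185 and 1971 CPM in *Meioc*-null (log2 fold change -0.87 ± 0.19, edgeR adjusted p = 0.0141), and -0.66 with an adjusted p of 0.128 without wild-type replicate 2. *Crabp1*, a retinoic acid-binding protein, had 40.3 and 27.9 CPM against 81.9 and 57.6 CPM (adjusted p = 0.0117). *Gm4969* had 90.7 and 97.7 CPM against 91.9 and 107.9 CPM and did not pass (adjusted p = 0.842). The partners *Ythdc2* (299 and 355 against 256 and 268 CPM, adjusted p = 0.0774, and 0.000391 with the block) and *Rbm46* (231 and 226 against 253 and 283 CPM, adjusted p = 0.26) did not pass either.

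Of 8 repressors that the study chose on these samples, so that their direction is not independent evidence, 7 were tested and 4 were higher in *Meioc*-null, with a median of -0.49. Over all genes 14.5% were called higher in *Meioc*-null. With the block 6 of the 7 were, beside 28.4% of all genes. *Suz12*, a subunit of the Polycomb complex PRC2, had 270.1 and 272 CPM in wild-type against 476 and 459.5 CPM in *Meioc*-null (log2 fold change -0.75 ± 0.11, edgeR adjusted p = 0.0039). The transcription factor gene *Sp3* had 40.4 and 38.8 CPM against 86.0 and 76.1 CPM (-0.99 ± 0.13, adjusted p = 0.00277). *Pbrm1*, a subunit of the PBAF remodeller, had 295 and 303 CPM against 434 and 432 CPM (-0.49 ± 0.11, adjusted p = 0.0166), and lost its call without wild-type replicate 1 (adjusted p = 0.0953). *Rad21* was the other. *E2f6* was too rarely detected for the test, at 6.32 and 5.19 CPM against 13.7 and 9.13 CPM. Of 12 other subunits of the E2F6 complex PRC1.6, 11 were tested and none passed, with 4 higher in *Meioc*-null under the block, where 28.4% of all genes were. None of 9 tested piRNA pathway genes, of 17 listed, passed (2 and 1 with the block, against 25% and 28.4% of all genes). In the list of later spermatocytes 4 of 12 genes were tested. *Hspa2*, a chaperone of spermatocytes, had 79.4 and 69.9 CPM against 33.6 and 44.8 CPM (0.96 ± 0.18, adjusted p = 0.00888), in mice that were all heterozygous for an *Hspa2* allele. *Tesmin* was also higher in wild-type (143 and 178 against 73.0 and 105 CPM, 0.90 ± 0.20, adjusted p = 0.0166) and *Mns1*, a protein of flagella, in *Meioc*-null (31.3 and 28.5 against 61.8 and 57.3 CPM, -0.96 ± 0.14, adjusted p = 0.00378), which passed the detection filter through *Meioc*-null alone.

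**Figure D3:**
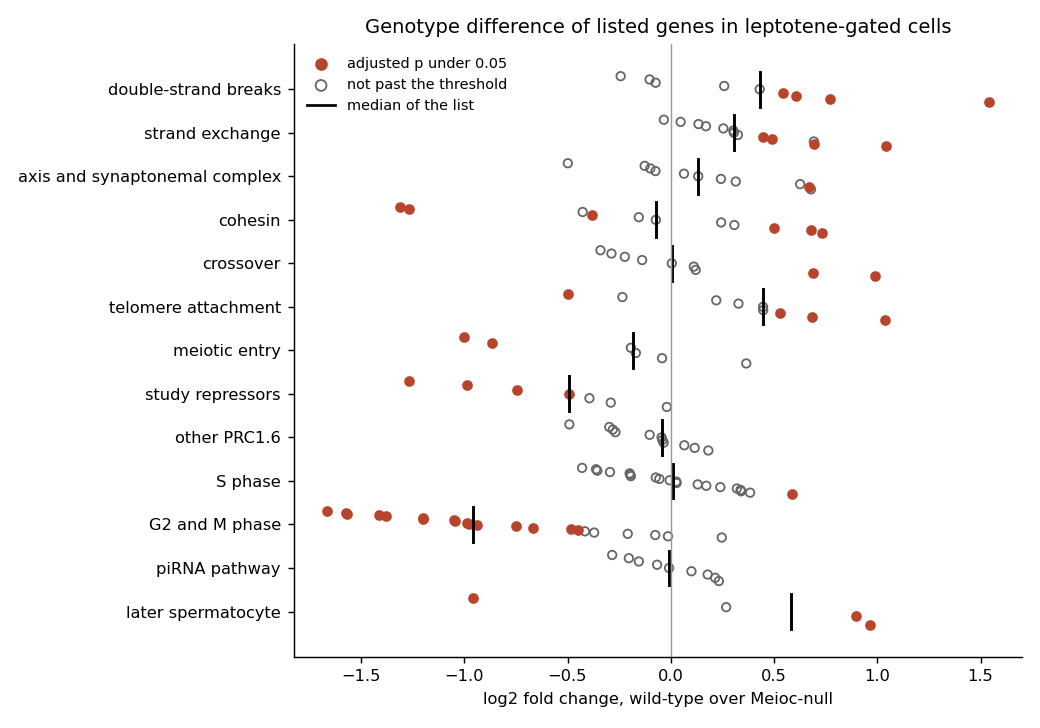
Log2 fold changes, wild-type over *Meioc*-null (horizontal axis), of tested genes in 13 lists (vertical axis) in leptotene-gated cells. Filled points passed the test, open points did not, and black bars are list medians, which ran from -0.96 for G2 and M phase to 0.58 for the 4 tested genes of later spermatocytes.

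Because *Stra8* was lower in the median wild-type member, the comparison was repeated in members with at least 5 *Stra8* UMIs per 10000, a choice made after seeing the data. There were 327 and 413 such cells in wild-type libraries and 788 and 594 in *Meioc*-null ones. It gave 1511 calls, 963 of them among the 1400. The G2 and M phase list gave 17 calls of 22 tested there, all higher in *Meioc*-null. Over all genes 882 of 5798 were called higher in *Meioc*-null in these cells. *Msh5* kept a log2 fold change of 0.65 (edgeR adjusted p = 0.00325), and *Spo11* was under the detection filter. *Ankrd31* (0.28, adjusted p = 0.322), *Hfm1* (0.14, adjusted p = 0.579), *Brca2* (0.27, adjusted p = 0.159), *Rec8* (-0.59, adjusted p = 0.0658), *Ccne2* (-0.14, adjusted p = 0.452) and *Tesmin* (0.33, adjusted p = 0.232) were no longer called, nor were *Maoa* (0.80, adjusted p = 0.055), *AC160336.1* (-1.93, adjusted p = 0.0548) and, by the choice of cells, *Stra8* itself (-0.14, adjusted p = 0.584). In members with a *Meiob* UMI, likewise chosen after seeing the data, *Ankrd31*, *Hfm1*, *Brca2*, *Rec8*, *Ccne2* and *Tesmin* all passed, with *Rec8* at -1.56 and *Ankrd31* at 0.68. Where the gate was applied after thinning, *Rec8* (-0.76, adjusted p = 0.0729), *Crabp1* (-0.49, adjusted p = 0.0936), *Ankrd31* (0.59, adjusted p = 0.0688), *Hfm1* (0.61, adjusted p = 0.0592), *Brca2* (0.43, adjusted p = 0.0669), *Ccne2* (-0.44, adjusted p = 0.0507) and *AC160336.1* (-1.99, adjusted p = 0.0884) missed the threshold. Without the detection filter the calls of *AC160336.1*, *Bub1b*, *Ccne2*, *Brca2*, *Hmmr*, *Pbrm1*, *Wapl* and *Sfr1* were lost (adjusted p of 0.0532 to 0.177), and with a gate sum of 10 those of *Bub1b* (adjusted p = 0.255) and *Mei1* (adjusted p = 0.105).

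The genotype difference in leptotene-gated cells was compared with that of each neighbour with an interaction term, in a fit over 3 gates and 4 libraries. Genes were kept where 25% or more of the cells of either genotype detected them in any of the 3 gates. A gene could thus pass through the gate where it was high, which favours the sign of its difference. Against preleptotene-gated cells, 592 of 6887 genes (8.6%) differed in their genotype effect, 232 with a larger and 360 with a smaller wild-type over *Meioc*-null ratio in the leptotene gate. The count fell to 74 without wild-type replicate 2, 56 without *Meioc*-null replicate 1 and 287 without *Meioc*-null replicate 2, and rose to 1405 where the gate sum had to reach 10 per 10000. With the litter pair by gate as further terms, added after seeing the data, it was 1678 (24.4%), and 2677 (38.9%) against the zygotene gate.

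*Cenpa* had 58.7 and 64.4 CPM in wild-type against 103 and 94.3 CPM in *Meioc*-null preleptotene-gated cells, against 26.3 and 24.3 and 167 and 155 CPM in the leptotene gate (difference of log2 fold changes -1.97 ± 0.13 SE, edgeR adjusted p = 5.08e-07). Against the zygotene gate, where it had 20.4 and 21.1 CPM in wild-type against 115 and 119 CPM in *Meioc*-null, the difference of -0.16 did not pass (adjusted p = 0.475). *Rec8* went in wild-type from 94.7 and 69.5 to 23.1 and 16.0 CPM, and in *Meioc*-null from 99.3 and 89.5 to 61.7 and 37.0 CPM (-1.08 ± 0.22, adjusted p = 0.014). Its call was lost without wild-type replicate 2 (adjusted p = 0.119) or *Meioc*-null replicate 1 (adjusted p = 0.0937). *Cdc20* had 53.0 and 40.5 against 68.0 and 59.4 CPM in the preleptotene gate (-0.95 ± 0.15, adjusted p = 0.00363). *Gm4969*, which did not differ beyond the test in the leptotene gate, had 67.8 and 79.6 CPM in wild-type against 37.2 and 41.1 CPM in *Meioc*-null preleptotene-gated cells (-0.97 ± 0.16, adjusted p = 0.00391, and 0.0656 without *Meioc*-null replicate 1). For *Msi2*, *Tchh*, *Gapdh* and *Ptms* the difference was -1.71, -1.39, -1.22 and -1.19, and *Gapdh* has many pseudogene copies that can share its reads. *Msi2* was under the detection filter in the members and passed only through another gate.

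In the other direction *Tsga10* went in wild-type from 52.7 and 61.3 CPM in the preleptotene gate to 171 and 242 CPM, and in *Meioc*-null from 42.2 and 40.2 to 56.8 and 71.5 CPM (1.25 ± 0.14, edgeR adjusted p = 0.000215). Against the zygotene gate its difference of 0.14 did not pass (adjusted p = 0.515), nor did that of *Rec8* (0.26, adjusted p = 0.561), while *Dnpep* differed there too (0.43, adjusted p = 0.0135). *Dnpep* went from 130 and 113 to 337 and 289 CPM in wild-type and from 64.4 and 53.8 to 77.4 and 68.8 CPM in *Meioc*-null (1.08 ± 0.10, adjusted p = 4.26e-05). *Msh5* had 42.0 and 43.9 against 40.6 and 32.4 CPM in the preleptotene gate (0.74 ± 0.17, adjusted p = 0.0148), with a call that was lost without wild-type replicate 2 (adjusted p = 0.0817) or *Meioc*-null replicate 1 (adjusted p = 0.136). *Cmss1*, *Zcwpw2* and *Acadsb* gave differences of 0.94, 0.91 and 0.89. The calls of *Zcwpw2* and *Acadsb* were lost without wild-type replicate 2 (adjusted p = 0.0704 for both) or *Meioc*-null replicate 1 (0.146 and 0.066), those of *Gapdh* without *Meioc*-null replicate 1 (0.25) or 2 (0.145), and that of *Tchh* without wild-type replicate 2 (0.0509). Among the lists, G2 and M phase had 7 of 22 genes with a more negative difference in the leptotene gate and none with a more positive one (7 and 3 of 21 with a gate sum of 10, 9 and 2 of 22 with the block), telomere attachment had 3 more positive and 2 more negative of 9, and double-strand breaks had none of 9 (2 more positive and 1 more negative with the block). Over all genes 3.37% were more positive and 5.23% more negative, which became 10.4% and 9.92% with a gate sum of 10 and 10.6% and 13.7% with the block.

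Against zygotene-gated cells, 1957 of 6887 genes (28.4%) differed in their genotype effect, 1041 with a larger and 916 with a smaller ratio in the leptotene gate. In the zygotene gate the rule gene *Prdm9* had 162 and 110 CPM in wild-type against 296 and 236 CPM in *Meioc*-null. A *Stra8* UMI was found there in 51.4% and 38.0% of wild-type against 98.6% and 98.2% of *Meioc*-null cells. The zygotene-gated cells of the genotypes were thus unlike, and the part of this in the differences was not tested. Only 139 and 165 *Meioc*-null cells were in that gate. The count was 851 without wild-type replicate 2, 827 without *Meioc*-null replicate 1 and 1033 without *Meioc*-null replicate 2, and 252 where the gate sum had to reach 10 per 10000.

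Several double-strand break genes had lower levels in the zygotene than in the leptotene gate in wild-type, while their *Meioc*-null levels in both gates lay closer together. *Zcwpw1*, the reader of the marks that PRDM9 writes, had 1110 and 1240 CPM in leptotene-gated and 592 and 543 CPM in zygotene-gated wild-type cells, and 795 and 996 against 875 and 958 CPM in *Meioc*-null (difference of log2 fold changes 1.10 ± 0.11 SE, edgeR adjusted p = 1.96e-05). *Tex15* had 1929 and 2207 against 1013 and 978 CPM in wild-type, and 2290 and 2286 against 2204 and 2146 CPM in *Meioc*-null (0.99 ± 0.08, adjusted p = 9.35e-06). *Mei4* (1.34, adjusted p = 0.00151), *Ccdc36* (1.31, adjusted p = 0.00012) and *Ankrd31* (0.58, adjusted p = 0.00726) also differed. In this list 6 of 9 genes had a more positive difference and none a more negative one, with a median of 0.90. Where the gate sum had to reach 10, it was 3 of 9 with a median of 0.40. Over all genes 15.1% were more positive and 13.3% more negative, and 2.58% and 1.07% with a gate sum of 10. *Spo11* was not among them, at 110 and 122 CPM in wild-type against 31.2 and 51.6 CPM in *Meioc*-null zygotene-gated cells (0.03 ± 0.21, adjusted p = 0.947). *Gm4969* went in wild-type from 90.7 and 97.7 to 42.0 and 30.4 CPM but had 94.3 and 98.3 CPM in *Meioc*-null zygotene-gated cells (1.38 ± 0.19, adjusted p = 0.000175). S phase genes, with 15 of 24 more positive (5 of 25 with a gate sum of 10), included *Rrm2* (1.08, adjusted p = 0.00133) and *Lig1* (0.90, adjusted p = 2.73e-05), and cohesins included *Rad21l* (1.19, adjusted p = 0.001) and *Smc1b* (0.84, adjusted p = 1.89e-05).

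G2 and M phase genes were split, with 5 more positive and 9 more negative of 22 (2 and 4 of 21 with a gate sum of 10). Over all genes 15.1% and 13.3% were, and 2.58% and 1.07% with that gate sum. *Cdc20* went in wild-type from 59.4 and 51.5 to 186 and 208 CPM, while *Meioc*-null cells had 149 and 146 CPM in the leptotene gate and 133 and 129 CPM in the zygotene gate (-2.01 ± 0.15, edgeR adjusted p = 5.86e-06). *Cks2* went in wild-type from 126 and 153 to 548 and 687 CPM, and *Meioc*-null cells had 519 and 661 CPM in the zygotene gate (-1.65 ± 0.13, adjusted p = 1.02e-05). *Aurka*, a spindle kinase (-2.06, adjusted p = 5.18e-05), *Cdk1* (-1.69, adjusted p = 0.000188) and *Ccnb2* (-1.17, adjusted p = 0.00107) also had negative differences. By size alone the most negative differences were those of *Resf1* (-2.85), *Brd1* (-2.64), *Mnd1* (-2.27), *Gnas* (-2.05) and *Cdc20*, of which *Mnd1* passed the detection filter only through another gate. The most positive were those of *Nacad* (1.66), *Rbpms2* (1.48), *Aph1c* (1.46), *H2-Ab1* (1.45) and *Aph1b* (1.38), of which *Aph1b* and *Aph1c* are near-identical copies whose reads may be split. The call of *Nacad* was lost without *Meioc*-null replicate 1 (adjusted p = 0.0741). Where the gate sum had to reach 10, the calls of *Resf1*, *Mnd1*, *Gnas*, *Aph1b*, *Nacad*, *Mei4*, *Ankrd31*, *Cdk1*, *Ccnb2* and *Rad21l* against the zygotene gate were lost (adjusted p of 0.097 to 0.716). Their differences were smaller there, at -0.73 for *Gnas*, -0.61 for *Cdk1*, 0.80 for *Nacad*, 0.78 for *Aph1b* and 0.62 for *Rad21l*.

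**Figure D4:**
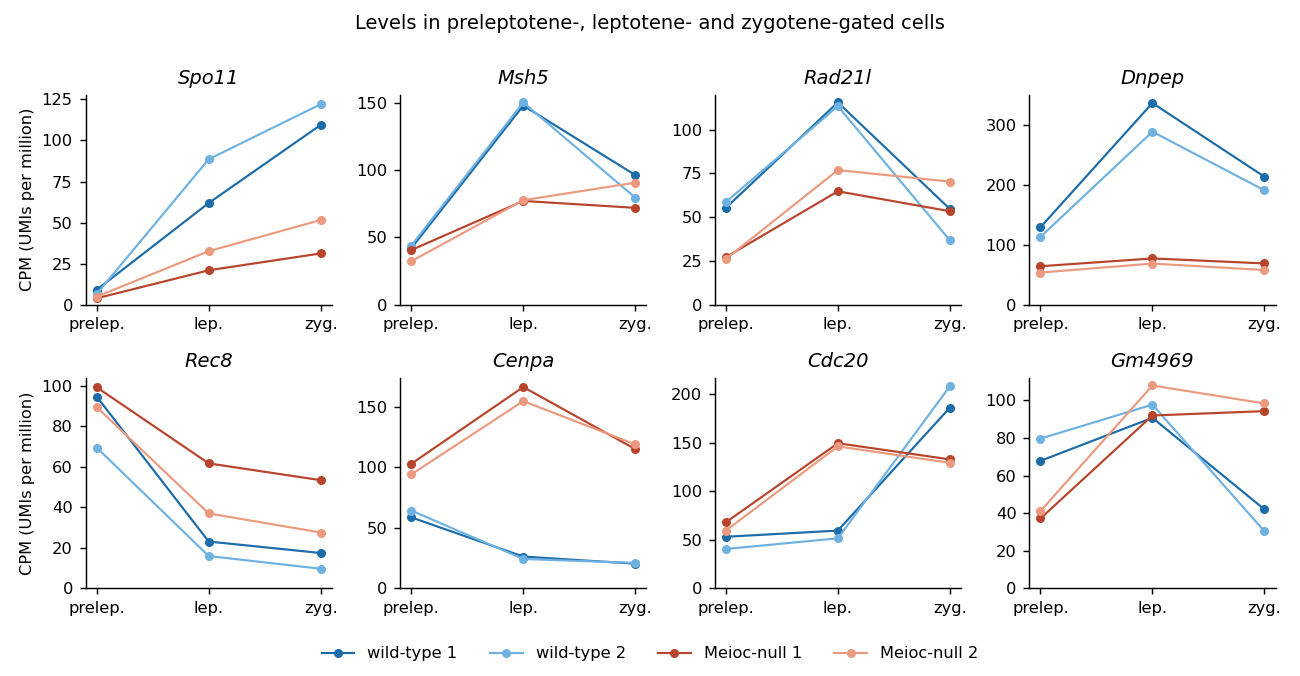
CPM (vertical axis, from 0) of 8 genes in preleptotene-, leptotene- and zygotene-gated cells (horizontal axis), with 1 line for each of the 4 libraries. *Cdc20* reached 186 and 208 CPM in wild-type zygotene-gated cells but had 149 and 146 CPM in *Meioc*-null cells already in the leptotene gate, and *Gm4969* had 42.0 and 30.4 CPM in the zygotene gate of wild-type and 94.3 and 98.3 CPM in that of *Meioc*-null libraries.

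The X chromosome, which is silenced in wild-type spermatocytes as they go on to pachytene, was described by its share of UMIs. In leptotene-gated cells X-linked genes took 2.47% and 2.53% of UMIs in wild-type against 2.65% and 2.72% in *Meioc*-null. In preleptotene-gated cells the shares were 2.63% and 2.66% against 2.61% and 2.58%, and in zygotene-gated cells 2.41% and 2.38% against 2.99% and 3.02%. In myoid-gated barcodes they were 3.30% and 3.28% against 3.34% and 3.47%. The *Meioc*-null libraries lay above the wild-type ones in the leptotene, zygotene and myoid gates and below them in the preleptotene gate. With 2 libraries a genotype an exact permutation test cannot give a two-sided p below 0.333. Of 196 X-linked genes tested in the members, 40 (20.4%) were higher in *Meioc*-null and 11 (5.61%) in wild-type, with a median log2 fold change of -0.08. Over all genes tested these shares were 14.5% and 9.81%, and on chromosome 11 they were 18.0% and 7.35%. The X-linked counts include genes whose direction was fixed by the detection filter. Among them *2810403D21Rik* and *Cox7b* passed it through *Meioc*-null alone and *Maoa* through wild-type alone. X-linked genes that passed in both genotypes were not counted apart, so whether the X chromosome differed from all genes was not tested.

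**Figure D5:**
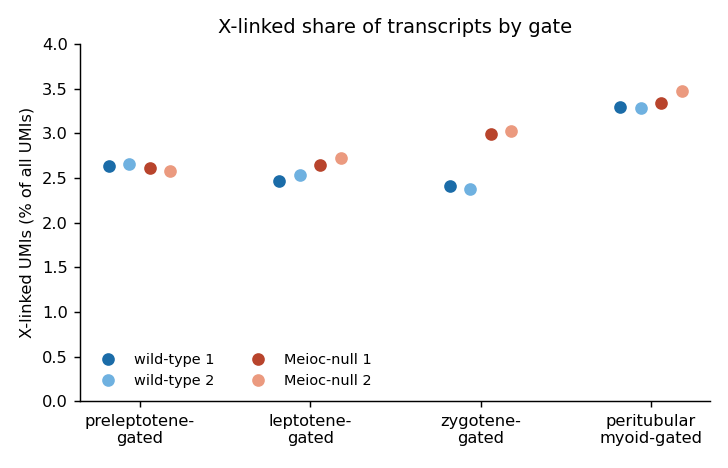
X-linked UMIs as a percentage of all UMIs (vertical axis, from 0) in 4 gates (horizontal axis), 1 point for each library. Leptotene-gated cells had 2.47% and 2.53% in wild-type against 2.65% and 2.72% in *Meioc*-null, between the preleptotene gate, where *Meioc*-null libraries were lower, and the zygotene gate, where they had 2.99% and 3.02% against 2.41% and 2.38%.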

How the data were processed

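Single-cell transcripts were measured in 4 testis libraries, 2 wild-type and 2 *Meioc*-null, grouped by the labels. The authors made 10x Genomics 3′ v3.1 libraries, counted them with Cell Ranger 4.0.0 against mm10 (GRCm38) and deposited raw UMI counts per gene and barcode, with no normalization. The study removed doublets with a score not used here. Members and lists were chosen with earlier results of these data known.

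UMI counts were summed per library and gate and tested with edgeR 4.0.16 in R 4.3.3 (TMM, robust quasi-likelihood fit, genotype the only term, 25% detection in either genotype, Benjamini-Hochberg adjusted p under 0.05, log2 fold change beyond 0.1, wild-type over *Meioc*-null). The 7 genes of the rule and mitochondrial genes stayed in the fit, and those that passed the detection filter were tested and counted. *Ccnb1*, which the rule limits, was among the 835 calls with a negative log2 fold change. Without rule and mitochondrial genes 5742 genes were tested, with 565 positive and 834 negative calls. The interaction counts also hold rule genes, with *Plk1*, *Ccnb1*, *Dmc1* and *Prdm9* called against the zygotene gate. Interactions were fitted with library and gate as terms, and in an alternative also with litter pair by gate. The fits were tested on simulated data. Member medians of mitochondrial UMIs were 7.18% to 7.71%, close to the limit. Genes were named where listed, and by size, as the 10 largest log2 fold changes in each direction (5 for each interaction) among called genes of at least 50 CPM that went the same way in both batches. Replicate numbers pair littermates per the labels, and deviations of same-numbered libraries correlated at 0.596 over 5759 genes. Alternatives were DESeq2 1.42.0, its size factors, other filters, gates, mitochondrial limits, Scrublet (scanpy 1.11.5) doublet removal, left-out libraries and the block. P-values of the main fit measure the spread between libraries of a genotype, which differ in batch as well as in pup. In that fit too the spread of a gene is estimated partly from the other genes. Thinned shares carry counting error besides. P-values with the block lean more on spread pooled over genes, because the block leaves little spread to estimate for each gene. For *Cenpa* the edgeR adjusted p was 1.41e-121 with the block against 5.88e-05 without it. Block counts are therefore no independent support for the calls. Gene coordinates came from GENCODE vM21 (GRCm38). Results for some genes are not reported here.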

Additional observations from a re-analysis of the deposited data

Results flagged for a closer look

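These results are given because the genotype effect differed between the leptotene gate and a neighbouring gate by a test of the difference itself (edgeR interaction, adjusted p under 0.05). Against preleptotene-gated cells 592 genes differed, and the named ones were *Cenpa* (-1.97), *Msi2* (-1.71), *Tchh* (-1.39), *Gapdh* (-1.22), *Ptms* (-1.19), *Acadsb* (0.89), *Zcwpw2* (0.91), *Cmss1* (0.94), *Dnpep* (1.08) and *Tsga10* (1.25), as differences of log2 fold changes. *Cenpa* (-0.16, adjusted p = 0.475) and *Tsga10* (0.14, adjusted p = 0.515) did not pass against zygotene-gated cells. Against zygotene-gated cells 1957 genes differed, and the named ones were *Resf1* (-2.85), *Brd1* (-2.64), *Mnd1* (-2.27), *Gnas* (-2.05), *Cdc20* (-2.01), *Aph1b* (1.38), *H2-Ab1* (1.45), *Aph1c* (1.46), *Rbpms2* (1.48) and *Nacad* (1.66). *Resf1*, *Brd1*, *Mnd1* and *Gnas* were low in the members of all 4 libraries, at 8.99 to 37.1 CPM, and high in zygotene-gated wild-type cells, at 57.7 to 138 CPM. A gene could pass the detection filter of this fit through the gate where it was high, which favours the sign seen for such genes.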

How the results depend on the processing

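The genotype comparison gave 1400 calls, between 1211 and 2006 with DESeq2 or its size factors, without the detection filter, after doublet removal, with a gate sum of 10 per 10000, a thinned gate, a mitochondrial limit of 20%, or members with a *Meiob* or high *Stra8* level. It gave 215 calls under a 5% mitochondrial limit, which left few members, 33 with Bonferroni adjustment and 3075 with the replicate block, and 902 to 1542 with 1 library left out, where the spread of the pair left in one genotype also stands for the lone library. Under the 5% limit 38 of 61 named genes lost their call with the direction kept and 1, *Sun1*, lost it and turned, to -0.11 (adjusted p = 0.899). Bonferroni adjustment cost 53 of 65 their call and the block none of 65, though block p-values lean on spread pooled over genes. In the G2 and M phase list 1 gene was called under the 5% limit (median -0.38) and 2 with Bonferroni adjustment, against 16. No other of the 65 called and named genes of this comparison changed direction under these settings, where it was tested, and named genes without a call were not followed. The interaction with the preleptotene gate gave 592 calls, 1405 with a gate sum of 10, 7 under the 5% limit, 17 with Bonferroni adjustment, 1678 with the replicate block by gate, and 56 to 635 with 1 library left out. Its 15 named genes all lost their call under the 5% limit and 8 did with Bonferroni adjustment. Without the detection filter 64.3% of its calls were positive, against 39.2%. The interaction with the zygotene gate gave 1957, and under the same settings 252, 127, 147, 2677 and 827 to 1837. The block by gate cost no named gene its call in either interaction, whereas a gate sum of 10 cost 10 of 22, the 5% limit 13 of 22 and Bonferroni adjustment 8 of 24 named genes theirs against the zygotene gate. The causes were not tested, beyond the fewer cells, genes or libraries that a setting leaves. With 2 pups a genotype small differences were not detectable, and the limits on *Plk1*, *Ccnb1*, *Psma8* and mitochondrial UMIs shaped which cells were compared.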
